A study of Mus musculus with 1086 samples.

Results

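The 8 genes described here were selected on very wide gaps between inbred founder strains in their liver RNA levels, each being low or near 0 in at least 1 strain and abundant in others. They were Moxd1 (ENSMUSG00000020000), Tff3 (ENSMUSG00000024029), Tsnax (ENSMUSG00000056820), Rarres1 (ENSMUSG00000049404), Sdr9c7 (ENSMUSG00000040127), Nxpe2 (ENSMUSG00000032028), B4galnt1 (ENSMUSG00000006731) and Cxcl14 (ENSMUSG00000021508). All 8 were among the 24965 genes of the founder table and passed its filter on low values, and 7 were among the 17144 genes of the table of Diversity Outbred (DO) animals and passed its filter. Tff3 in DO animals was not analysed here. The question was whether DO animals, which descend from the same strains, divide into low and high levels of these genes.

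Liver RNA was sequenced from 128 founder males, 8 for each of 8 strains on each of 2 diets, and from 277 DO animals (females: 73 chow and 70 high fat; males: 68 chow and 66 high fat). The founders were 129S1/SvImJ (129S1), A/J (AJ), C57BL/6J (B6), CAST/EiJ (CAST), NOD/ShiLtJ (NOD), NZO/HILtJ (NZO), PWK/PhJ (PWK) and WSB/EiJ (WSB). Founder males were 26 weeks old, except NZO males at 20 weeks, so that strain and age cannot be told apart for NZO, and no founder females were measured. Per the labels, founder diets held 17% of kcal as fat (called chow here) or 45% of kcal as fat with 34% sucrose by weight (high fat), while the 26-week-old DO animals were given chow with 6% or high-fat chow with 22% fat by weight. The labels name no transgene or deletion in any group. All samples are pieces of whole liver.

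A DO animal is an outbred mouse whose chromosomes are mosaics of the founder strains, and at each place in the genome it carries a pair of founder segments. The 8 genes belong to different families. Moxd1 encodes a copper-dependent monooxygenase related to dopamine beta-hydroxylase, and Sdr9c7 a short-chain dehydrogenase/reductase of the retinol dehydrogenase kind that is known from the skin barrier. B4galnt1 encodes the enzyme that makes the gangliosides GM2 and GD2, which are sugar-bearing membrane lipids. Tff3 is a small secreted trefoil peptide of mucous epithelia, and Cxcl14 is a secreted chemokine. Tsnax encodes the partner of translin, which is an RNA-binding protein, and together they cleave small RNAs. Rarres1 is a retinoid-responsive membrane protein of the latexin family, and Nxpe2 belongs to the neurexophilin and PC-esterase family, whose function is little known.

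For orientation, the 250 bases upstream of the annotated start are shown for Moxd1, Sdr9c7 and Nxpe2, since Moxd1 had the widest range among DO animals and the other 2 were far lower in a few of them than in the rest. They were taken from RefSeq (GRCm38.p6, the C57BL/6J reference), which had such a window for 5 of the 8 genes. B6 was on the low side for Moxd1 and among the strains with measurable levels for Sdr9c7 and Nxpe2. Capitals mark matches, on either strand, to the TATA box as TATAAA, to the letters CCAAT, to a nuclear receptor site as AGGTCA or to a GC box as GGGCGG. The windows lie at chr10:24223267-24223516 (plus strand) for Moxd1, chr10:127898285-127898534 (plus strand) for Sdr9c7 and chr9:48340899-48341148 (minus strand) for Nxpe2.
Moxd1: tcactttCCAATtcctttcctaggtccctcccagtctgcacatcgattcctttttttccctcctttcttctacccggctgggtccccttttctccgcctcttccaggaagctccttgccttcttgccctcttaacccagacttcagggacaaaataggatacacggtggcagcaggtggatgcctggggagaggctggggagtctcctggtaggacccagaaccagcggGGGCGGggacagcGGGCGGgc
Sdr9c7: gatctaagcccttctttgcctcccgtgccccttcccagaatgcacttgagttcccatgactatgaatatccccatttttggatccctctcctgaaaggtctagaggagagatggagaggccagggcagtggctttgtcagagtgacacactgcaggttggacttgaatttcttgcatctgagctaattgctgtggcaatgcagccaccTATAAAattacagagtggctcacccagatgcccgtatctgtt
Nxpe2: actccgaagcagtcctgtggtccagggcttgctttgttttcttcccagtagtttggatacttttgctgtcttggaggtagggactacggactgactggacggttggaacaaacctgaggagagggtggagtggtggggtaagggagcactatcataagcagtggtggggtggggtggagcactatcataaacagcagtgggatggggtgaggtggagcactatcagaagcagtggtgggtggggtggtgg
Moxd1 held CCAAT 243 bases and GGGCGG 21 and 8 bases upstream of the start, and Sdr9c7 held TATAAA 42 bases upstream. The Nxpe2 window held none of the 4 motifs. Of 32851 mouse windows of this length, 33.8% held CCAAT, 32.7% GGGCGG, 14.02% AGGTCA and 12.4% TATAAA, so the matches are a description only. GC content was 58.4% for Moxd1, 49.6% for Sdr9c7 and 54.8% for Nxpe2. Rarres1 held GGGCGG at 24 and 10 bases, and Cxcl14 held AGGTCA at 130 bases on the other strand.

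Levels are given in count equivalents, the deposited values multiplied by 1 constant per table so that 1 unit stands for the step between low values of a typical library. The constants differ between tables, so founder and DO levels are not compared, and levels are compared between samples and not between genes. Summed count estimates were 5.87 M to 14.1 M per founder library and 63.9 M to 361.5 M per DO animal on individualized genomes (M standing for 1e6). From the same reads they were 34.3 M to 184.2 M per DO animal on the NCBIM37 reference. A unit is therefore not 1 read in both DO tables, and DO levels are those of the individualized table unless stated. All but 2 of the 128 founder libraries were closest in their expression profile over 13528 genes to their labelled strain. The library labelled B6 chow of animal 8438 was closest to NOD (r = 0.656, against -0.08 with B6), and the library labelled NOD high fat of animal 8264 was closest to B6 (r = 0.596, against 0.01 with NOD). These 2 are kept under their labels, and results that rest on them are given with and without them. All 6 hepatocyte markers (Alb, Apoa1, Ttr, Tat, Cyp2e1 and Fgb) were above 0 in the median of each group. In whole liver, fewer cells of a type and less RNA per cell cannot be told apart.

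The strain levels chose the genes, so they are described here without a test. Over 13536 tested genes the median range between the highest and lowest strain mean was 0.83 on the log2 scale of count equivalents plus 1. On the same scale Moxd1 ranged over 10.84 (rank 6), Tff3 over 8.88 (rank 29), Sdr9c7 over 8.17 (rank 51), Rarres1 over 7.92 (rank 64) and Nxpe2 over 7.18. Tsnax ranged over 6.84, Cxcl14 over 6.66 and B4galnt1 over 5.66 (rank 290, or 6.01 and rank 249 without the 2 libraries). Many genes that are not members therefore had ranges between those of the members.

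**Figure D1:**
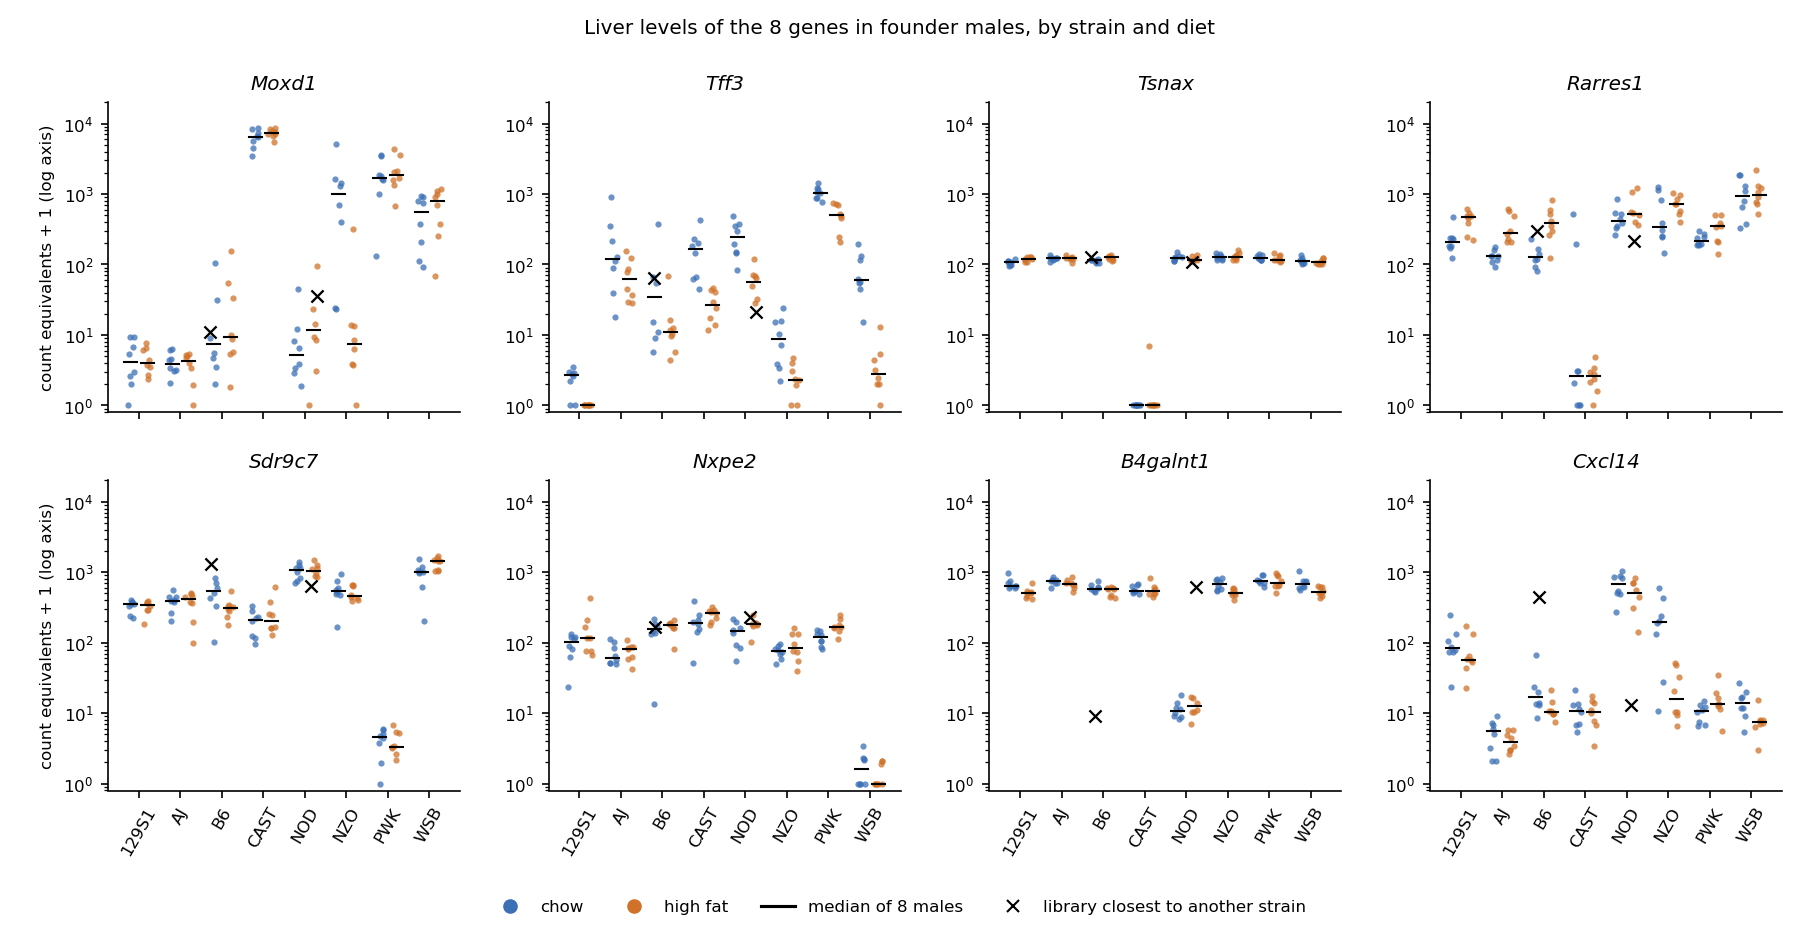
Count equivalents plus 1 (log axis) of the 8 genes in each founder male, by strain and diet, with the median of 8 males as a bar and the 2 libraries closest to another strain as crosses. Tsnax, Sdr9c7, Nxpe2 and B4galnt1 were low in a single strain, while Moxd1, Tff3 and Cxcl14 spread over several levels.

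Moxd1 was high in 3 strains, low in 4 and divided by diet in NZO. In CAST it was at 3417, 6447 and 8669 count equivalents (lowest, median and highest of 8 males) on chow and at 5454, 7382 and 8545 on high fat. In PWK it was at 129, 1713 and 3632 on chow and 666, 1882 and 4323 on high fat, and in WSB at 91.3, 553 and 934 on chow and 66.6, 803 and 1166 on high fat. These 3 strains, which are wild-derived, were high on both diets. The medians of 129S1, AJ, B6 and NOD lay between 2.92 and 10.8 on either diet, although single B6 males reached 105.1 and 151.9. NZO was at 22.6, 1003 and 5144 on chow and at 0, 6.48 and 317 on high fat, so that 7 of its 8 high-fat males were below all 8 chow males. Ranges of neighbouring strains in the order CAST, PWK, WSB, NZO, B6, NOD, AJ, 129S1 all overlapped.

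Sdr9c7 was near 0 in PWK alone. PWK males were at 0, 3.55 and 4.87 on chow and 1.15, 2.35 and 5.81 on high fat, whereas the lowest male of the other strains was at 95.03. The other strains overlapped their neighbours in the order NOD, WSB, NZO, AJ, 129S1, B6, CAST. The highest of these were NOD at 709, 1081 and 1404 on chow, and WSB at 204, 1007 and 1520 on chow and 1026, 1459 and 1703 on high fat. CAST was lowest among them, at 95.03, 210 and 335 on chow.

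B4galnt1 was low in NOD alone, at 7.35, 9.82 and 17.0 on chow. On high fat NOD was at 6.09, 11.6 and 617, where 617 is the library of animal 8264, and without it the highest was 16.0. In the other strains the medians lay between 505 and 752. The lowest value outside NOD was 8.01, in the library labelled B6 chow of animal 8438, and without it the lowest was 402. Without these 2 libraries no NOD male overlapped any male of another strain.

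Tff3 was highest in PWK, at 757, 1036 and 1447 on chow and 211, 503 and 739 on high fat. It was lowest in 129S1, at 0, 1.72 and 2.50 on chow and listed at 0 in all 8 males on high fat, and in NZO, at 1.22, 7.78 and 22.998 on chow. AJ (16.8, 118.7 and 906 on chow), B6 (4.68, 34.0 and 377), CAST (44.3, 163.1 and 429), NOD (81.8, 246 and 487) and WSB (14.1, 58.5 and 195) lay between and overlapped. Tff3 is known from goblet cells, and the summed level of the 4 measured goblet and gut epithelium markers was 23.2, 41.0 and 52.4 in PWK on chow and 12.4, 18.7 and 27.99 on high fat. The sum rested mostly on Fcgbp, since Muc2 and Spink4 had a median of 0 in PWK on both diets and Vil1 on chow. Its median in the other groups was 1.24 to 12.9, but their ranges overlapped those of PWK, with highest values of 28.97 in B6 on chow, 21.6 in AJ on chow and 18.5 in AJ on high fat. The part of these cells in the Tff3 levels was not tested.

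Cxcl14 was highest in NOD, at 270, 678 and 1054 on chow and at 11.9, 499 and 819 on high fat, where 11.9 is the library of animal 8264 and the lowest without it was 138.9. In NZO it was at 9.79, 197 and 591 on chow and at 5.66, 14.7 and 50.2 on high fat. In 129S1 it was at 22.3, 82.3 and 247 on chow and 21.4, 56.5 and 170.7 on high fat. The medians of the other 5 strains were 2.95 to 15.9, lowest in AJ, and the highest B6 value (443, animal 8438) was 66.7 without that library. The chemokine thus had no single low strain but a high NOD, an intermediate 129S1 and a diet-dependent NZO.

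Tsnax was listed at 0 in 15 of 16 CAST males and at 6.02 in the other one, and at 95.2 to 157.7 in all males of the other 7 strains. The order of those 7 strains, from NZO to WSB, overlapped at each step. Ribosomal protein genes that every cell uses were also far lower in CAST: the CAST median was 31.0 for Rpl19, 50.9 for Rpl23a and 177 for Rpl23, against at least 1134, 876 and 1111 in the other strain medians. These 3 genes had the founder profiles most like that of Tsnax (Pearson r = 0.99, 0.98 and 0.98 over 128 males, a description). Beside these genes, the CAST value of Tsnax is given only as listed at 0, and whether it reflects the RNA was not tested. In all, 8 genes had a CAST median of 0 with medians of 10 or more in each other strain, against 7 in PWK, 2 each in B6 and NZO, 1 each in 129S1 and WSB and 0 in AJ and NOD.

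Rarres1 was near 0 in most CAST males. On chow 6 CAST males were at 0 to 2.11 and the other 2 at 196 and 517, and on high fat they were at 0, 1.61 and 3.83. Both of the higher CAST libraries were closest to CAST in their profile (r = 0.667 and 0.789). Their r lay under the median of 0.874 over the 16 CAST libraries, and 0.667 was the lowest of these. In the other strains it ranged from 78.8 to 2195, highest in WSB at 328, 938 and 1856 on chow. Its founder profile was most like those of Acadvl (r = 0.86), Rpl19 and Rpl38, which were likewise lowest in CAST, with CAST medians of 434, 31.0 and 19.4 and medians of at least 2729, 1134 and 280 in the other strains.

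Nxpe2 was near 0 in WSB alone, at 0, 0.593 and 2.37 on chow and 0, 0 and 1.12 on high fat. The lowest male of the other strains was at 12.5 (B6 chow) and their group medians were 59.1 to 265, highest in CAST on high fat at 179, 265 and 324. It was the only gene of the 13536 with a WSB median of 0 and at least 10 in every other strain.

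The founder diets were compared next, since diet was not used to choose the genes. Across the 8 strains 3 of the 8 genes changed with high fat, and 23.2% of all tested genes did (24.3% without the 2 libraries). Tff3 fell by 1.93 ± 0.19 (log2, SE; limma adjusted p = 2.7e-15) and Cxcl14 fell by 0.80 ± 0.19 (limma adjusted p = 6.16e-04), while Nxpe2 rose by 0.35 ± 0.11 (limma adjusted p = 0.0157). Without the 2 libraries 5 of 8 passed: Rarres1 then rose by 0.53 ± 0.20 (limma adjusted p = 0.0339; 0.49 and 0.0542 with them), and B4galnt1 fell by 0.19 ± 0.05 (limma adjusted p = 5.61e-04; -0.01 and 0.974 with them). Moxd1 (-0.39 ± 0.27), Sdr9c7 (0.02 ± 0.11) and Tsnax (0.06 ± 0.05) did not pass in either fit.

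The diet difference itself varied between strains for 3 of the 8 genes, against 8.37% of all tested genes. These were Moxd1 (limma F-test, adjusted p = 1.63e-05), Tff3 (0.00808) and Cxcl14 (0.0251), and without NZO only Tff3 remained, with adjusted p of 0.971 for Moxd1 and 0.438 for Cxcl14. In NZO, Moxd1 fell by 5.70 ± 0.76 (limma adjusted p = 7.09e-09), from a median of 1003 to 6.48. NZO males on high fat also had lower Cxcl14, which fell by 2.88 ± 0.53 (limma adjusted p = 2.74e-05), and lower Tff3, which fell by 1.795 ± 0.53 (limma adjusted p = 0.0114). NZO had the broadest diet response, with 17.5% of all genes passing. In WSB, where 5.3% of genes passed, Tff3 fell by 4.40 ± 0.53 (limma adjusted p = 6.71e-10), and all 8 high-fat males (0, 1.801 and 12.1) were below all chow males (14.1, 58.5 and 195).

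Tff3 in CAST fell by 2.39 ± 0.53 (limma adjusted p = 0.00415). In NOD it fell by 2.19 ± 0.53 (limma adjusted p = 0.0163), and fell by 2.02 ± 0.55 without the NOD library of animal 8264. The Tff3 differences in the other strains were -1.05 to -1.34 and did not pass. Among these, all 8 PWK males on high fat (211, 503 and 739) were nevertheless below all 8 on chow (757, 1036 and 1447), and in 129S1 6 of 8 males on chow and 0 of 8 on high fat were above 0. All 8 strain differences of Tff3 were negative. In all, 6 of the 64 gene and strain combinations passed. Shares of all genes passing were 1.17% in CAST, 1.36% in NOD, 1.44% in 129S1, 0.133% in AJ, 3.15% in B6 and 2.7% in PWK. Without the 2 libraries B4galnt1 also passed in 129S1 (-0.44), NZO (-0.40) and WSB (-0.39).

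**Figure D2:**
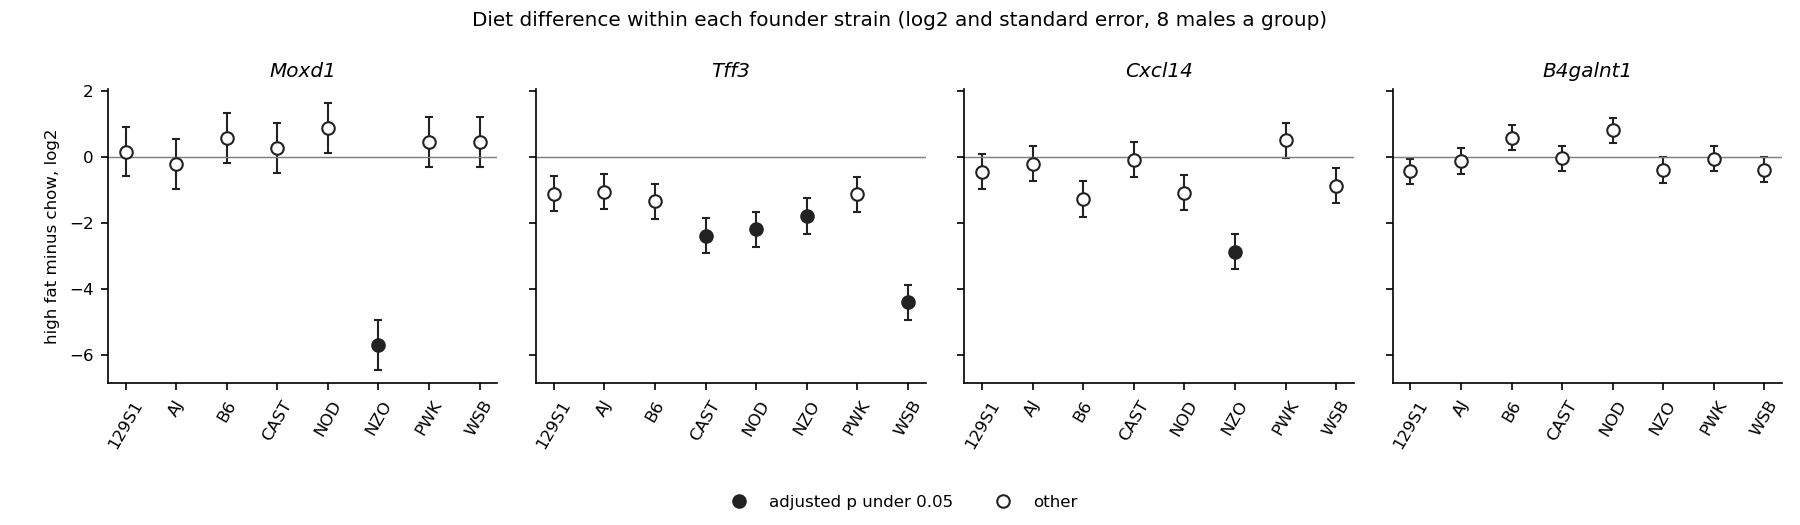
High fat minus chow (log2) with its standard error for Moxd1, Tff3, Cxcl14 and B4galnt1 within each founder strain, filled where the limma adjusted p was under 0.05. Moxd1 fell in NZO, Cxcl14 fell in NZO, and Tff3 fell in CAST, NOD, NZO and WSB, with negative values in all 8 strains.

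Some cell markers moved with the NZO diet groups. Of 4 tested bile duct markers 1 fell, and the summed level of the 6 in the table was 303 to 1012 on chow and 240 to 529 on high fat. Of 6 hepatocyte markers 1 rose and 2 fell, and 2 of 6 stellate cell and fibroblast markers rose. In WSB 1 of 4 endothelial markers rose, the summed bile duct level was 192 to 306 on chow and 120.6 to 208 on high fat, and no Kupffer cell marker passed. The part of these cells in the diet differences was not tested.

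In DO animals the genes behaved in 3 ways. Moxd1 spread over a wide range with all females low. Sdr9c7, Nxpe2 and B4galnt1 were far lower in a few animals than in all others. Tsnax, Rarres1 and Cxcl14 met neither of the rules below. A gene was called split where a 2-component normal mixture had means at least 2 apart on the log2 scale, an Ashman D of at least 2, at least 5% of animals on each side and a better BIC by at least 10. Only Moxd1 met this rule, as did 8.54% of all tested genes. Sdr9c7, Nxpe2 and B4galnt1 met all of it but the share of 5%, with 1.08%, 1.81% and 3.25% in the low component. Moxd1 had 198 animals on the low side (0, 4.31 and 82.6, lowest, median and highest) and 79 on the high side (97.6, 2625 and 29141). The neighbours at the border, 82.6 and 97.6, were close, so this is a broad range with a border and not a gap.

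The Moxd1 sides followed sex. All females were low, at 0, 3.81 and 53.3, while 55 males (41.0%) were low and 79 were high (Fisher's exact test, two-sided, adjusted p = 4.83e-32). Males on chow were at 0, 807 and 15782 and males on high fat at 0, 90.1 and 29141, and 46 of 68 and 32 of 66 of them were at 100 or more. Over both sexes together, low shares by diet were 75.7% on high fat and 67.4% on chow (Fisher's exact test, adjusted p = 0.574). By block they were 70.7% and 71.9% (same test, adjusted p = 1), and neither comparison passed. Since all females were low, these pooled comparisons cannot show whether the low share differed by diet or block among the males. The low share among males alone was not tested. Among the males alone the rule also found a split (8.29% of all genes). Its means were 5.09 and 12.26 on the log2 scale, with 62.8% in the low component. The border between them was at 10.05, against 6.52 over all animals, so the 2 fits do not set the same males apart. Over both sexes the border was at 3.76 in block 1 and 6.27 in block 2. Among females alone it set those listed at 0 apart from the rest, with 13.9% in the low component (6.18% of all genes). Listed at 0 were 13 of 48 females in block 1 and 8 of 95 in block 2. Per the labels, females of block 1 had fewer sequencing runs each than those of block 2, and the part of depth in these zeros was not tested. Levels under 3 count equivalents are not told apart from 0, so this female split is not read as a low and a high level. On residuals from sex, diet and block, Moxd1 was not split (6.83% of all genes were).

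**Figure D3:**
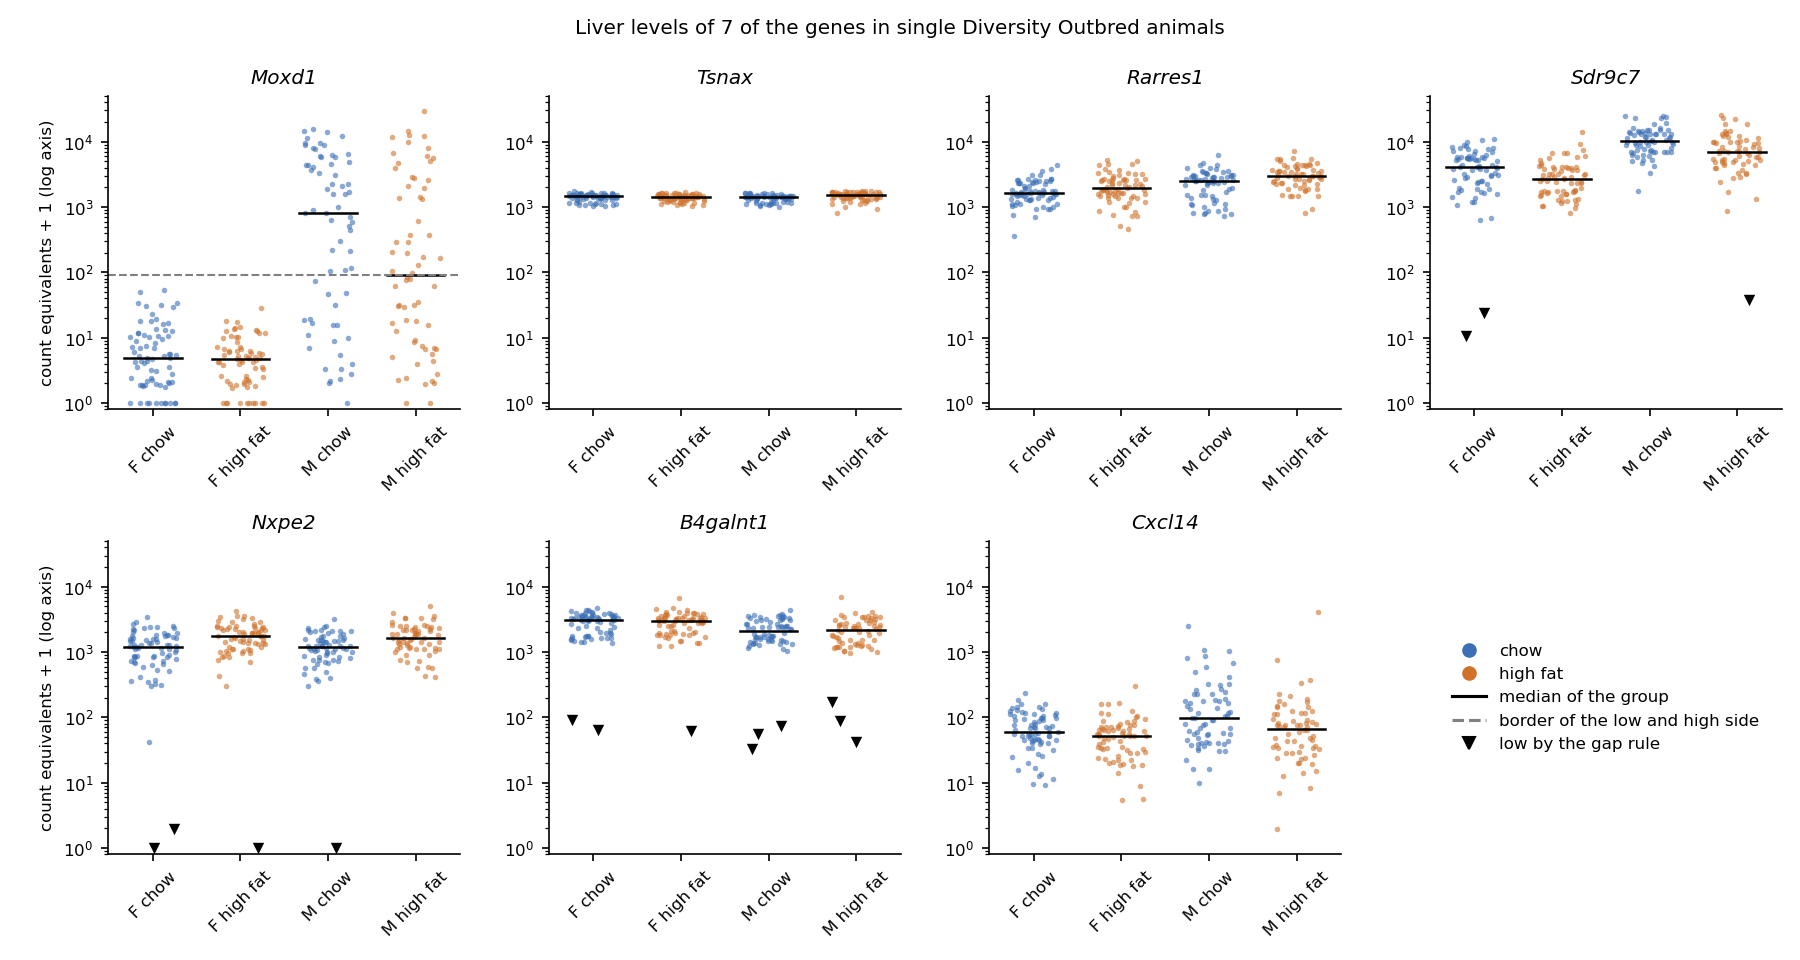
Count equivalents plus 1 (log axis) of 7 genes in each of 277 DO animals, by sex (F, M) and diet, with group medians as bars and the Moxd1 border dashed. All females lie under the Moxd1 border, and triangles mark the 3 Sdr9c7, 4 Nxpe2 and 9 B4galnt1 animals that lie far under all others.

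A second rule, added after the values were seen, asked for a gap of at least 2 on the log2 scale with at least 3 animals on each side. It was met by Sdr9c7, Nxpe2 and B4galnt1, and by 0.621% of all tested genes. Since these animals were set apart by their values, they are described without a test of level. The 3 animals low for Sdr9c7 were at 9.59, 23.1 and 36.9, and the other 274 at 642 to 25441 with a median of 5426, so that the gap was 4.08 on the log2 scale. They were 2 females on chow and 1 male on high fat.

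For Nxpe2, 4 animals (1.44%) were low, 3 of them listed at 0 and 1 at 0.951, and the other 273 were at 41.7 to 5053 with a median of 1421. Against a floor of 3 counts per animal, the median of the others was at least 474-fold higher. The low animals were 2 females on chow, 1 female on high fat and 1 male on chow.

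For B4galnt1, 9 animals (3.25%) were low, at 32.1, 64.2 and 173.7, and the other 268 were at 969 to 7038 with a median of 2584, which was 40.2-fold higher than the low median. Low animals were 6 males and 3 females, and 1 of 92 animals in block 1 and 8 of 185 in block 2. No animal was low for 2 of the 3 genes. All 16 were also set apart in the NCBIM37 table. None of the 9 comparisons of their share by sex, diet or block passed (Fisher's exact test, smallest adjusted p = 0.574), though with so few low animals only a strong skew could pass.

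The other 3 genes met neither rule and had no low animals set apart by such a gap. Tsnax was at 821, 1447 and 1763 (lowest, median and highest of 277), a narrow range with no value at 0. Its mixture missed the first rule only in the distance between the means, 0.36 on the log2 scale. The low component held 23.3% of animals, with an Ashman D of 2.87 and a gain in BIC of 38.9. On residuals from sex, diet and block Tsnax again missed only that distance (0.32). In block 1 the gain in BIC was -4.96, and among males alone the Ashman D was 1.73, so other conditions were missed there. Rarres1 was at 365, 2251 and 7229, and its lowest 3 animals were set off by a gap of only 0.44 on the log2 scale. Cxcl14 was at 0.940, 62.2 and 4115, with 4 animals at 1000 or more, all male, and no gap over 0.29 with 3 or more animals on each side. Its levels in females ended at 302.

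Sex was compared over all DO animals, and 5 of the 7 genes differed, near the 62.9% of all tested genes. Moxd1 was higher in males by 5.54 ± 0.37 (log2, SE; limma adjusted p = 4.62e-35), with 78 males and 0 females at 100 or more. On whole counts recovered from the steps, edgeR gave 8.65 for Moxd1. Sdr9c7 was higher in males by 1.44 ± 0.14 (limma adjusted p = 9.94e-20): females were at 9.59, 3217 and 14124 and males at 36.9, 8718 and 25441. These 2 enzymes kept their direction under total-count scaling (4.86 and 0.58).

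B4galnt1 was lower in males by 0.49 ± 0.13 (limma adjusted p = 2.9e-04), with medians of 3050 in females and 2139 in males and ranges that overlapped throughout. Rarres1 was 0.48 ± 0.08 higher in males (limma adjusted p = 4.31e-08), with medians of 2695 in males and 1746 in females, and Cxcl14 was 0.64 ± 0.16 higher in males (limma adjusted p = 2.58e-04), with medians of 74.9 and 54.3, but under total-count scaling both changed sign (-0.38 and -0.20). That scaling moved the median of all genes to -0.86, so that Rarres1 and Cxcl14 stood above the shifted median and B4galnt1 (-1.35) below it. Tsnax (0.01 ± 0.02) and Nxpe2 (0.15 ± 0.17) did not pass, and under total-count scaling they were at -0.85 and -0.71. Within block 1, B4galnt1 (-0.18) and Cxcl14 (0.47) did not pass, while all 5 passed within block 2.

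High fat changed 5 of the 7 genes in DO animals, against 58.9% of all tested genes. Nxpe2 rose by 0.66 ± 0.17 (limma adjusted p = 4.03e-04), from medians of 1199 to 1710, and Rarres1 rose by 0.32 ± 0.08 (limma adjusted p = 2.73e-04), from 1895 to 2528. Cxcl14 fell by 0.58 ± 0.16 (limma adjusted p = 0.00112), from 70.6 to 54.2, and Sdr9c7 fell by 0.48 ± 0.14 (limma adjusted p = 0.00178), from 6467 to 4088. The directions of Nxpe2 and Cxcl14 were those seen in the founder males. Moxd1 fell by 0.91 ± 0.37 (limma adjusted p = 0.0282), but the call was lost with edgeR (-0.54, adjusted p = 0.188), with DESeq2 (-0.58, adjusted p = 0.0738) and within block 2 (-0.40, limma adjusted p = 0.491). Within block 1 Moxd1, Sdr9c7 and Cxcl14 passed, and within block 2 Rarres1 and Nxpe2 did.

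Fitted within each sex, 6 of the 7 genes changed with diet in males, where 47.8% of all genes did, and 1 of 7 in females, where 43.2% did. In males Moxd1 fell by 1.57 ± 0.54 (limma adjusted p = 0.0108), Cxcl14 fell by 0.83 ± 0.23 (0.00159) and Sdr9c7 fell by 0.69 ± 0.20 (0.00286). Rarres1 rose by 0.45 ± 0.12 (0.000676), Nxpe2 rose by 0.60 ± 0.25 (0.037) and Tsnax rose by 0.10 ± 0.03 (0.0105). In females only Nxpe2 passed, with 0.73 ± 0.24 (limma adjusted p = 0.00809), and the female values of Moxd1 (-0.26), Cxcl14 (-0.33), Sdr9c7 (-0.28) and Rarres1 (0.20) had the same signs as in males. The male count was 4 in block 1 and 1 in block 2, and edgeR called 4 in males and 3 in females.

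The difference between the sexes was tested directly. None of the 7 genes passed the test of sex by diet (limma), which 8.9% of all genes did; at an unadjusted p under 0.05 there was 1, Tsnax (0.11 ± 0.05, p = 0.0153), and edgeR and DESeq2 also called 0. The Moxd1 value was -1.31 ± 0.75 (limma adjusted p = 0.298), with the opposite sign in edgeR (0.34, adjusted p = 0.83), and within block 1 it was -3.61 ± 1.26 (limma adjusted p = 0.037), against -0.17 ± 0.91 in block 2.

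**Figure D4:**
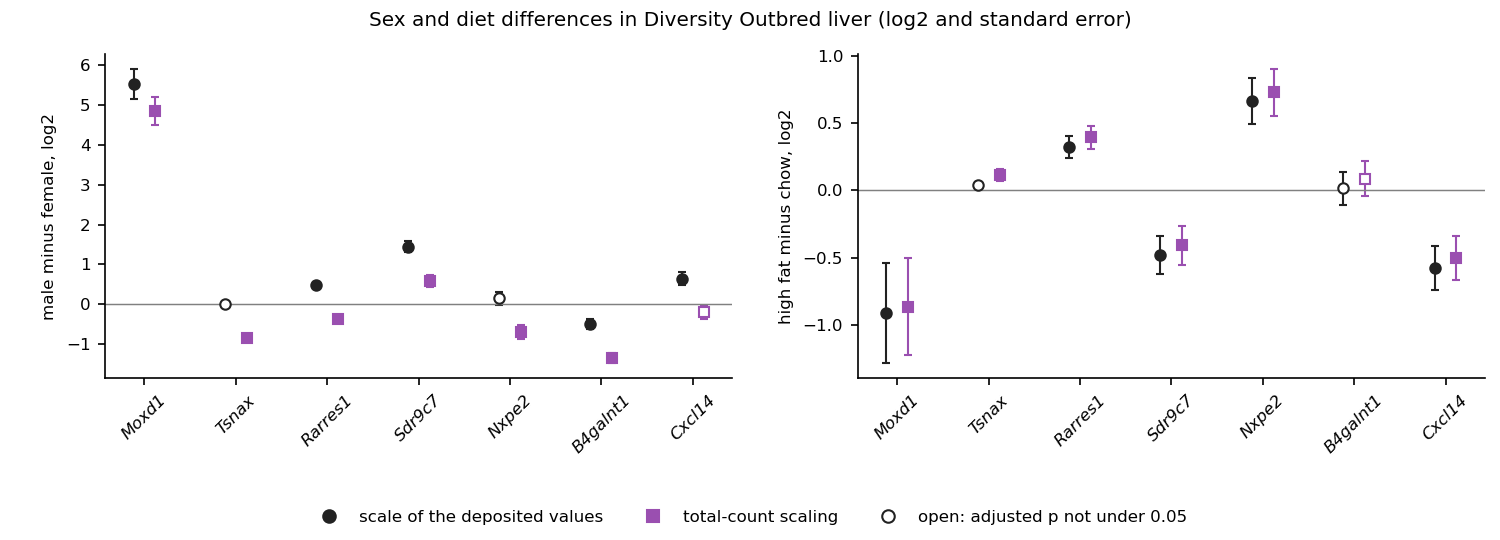
Male minus female and high fat minus chow (log2, standard error) for 7 genes in DO liver, on the scale of the deposited values (circles) and after total-count scaling (squares); filled symbols passed an adjusted p of 0.05. Moxd1 and Sdr9c7 are higher in males on both scales, while Rarres1, Cxcl14, Tsnax and Nxpe2 change sign between them for sex and no gene does for diet.

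Markers of other liver cells moved with sex and diet in the same animals. On the scale of the deposited values, 5 of 5 Kupffer cell, 4 of 4 endothelial, 4 of 4 T and B cell and 5 of 6 stellate cell and fibroblast markers were lower in males, and 2 of 6 bile duct markers were higher. The summed Kupffer cell level was 1061 to 31335 in females on chow and 1385 to 18157 in males on chow. With high fat 4 of 5 Kupffer cell and 4 of 4 endothelial markers rose. Of 6 hepatocyte markers 1 was higher and 2 were lower in males, and 3 rose and 2 fell with high fat. Among all tested genes 62.9% passed for sex and 58.9% for diet. The part of these cells in the differences of the 7 genes was not tested.

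The same reads had been aligned to each DO animal's individualized genome and to the NCBIM37 reference. After each animal was centred on its median gene, 1 of the 7 genes differed by more than 1.2-fold, against 3.02% of all genes. That gene was Moxd1, which was lower in the individualized table by 0.44 ± 0.02 on the log2 scale (limma treat, adjusted p = 1.96e-14). Most animals were near the floor for Moxd1, 198 of them with a median of 4.31. There the 1 added before the log2 shrinks a difference before it is centred. How much of the 0.44 rests on such low values was not tested. The other 6 were between -0.20 (Rarres1) and 0.05 (Tsnax). Of the 198 animals low for Moxd1 in the individualized table, 192 were low in the NCBIM37 table.

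For relations among the genes, DO animals under the gap of either gene were left out. Relations of Moxd1 were computed apart in its low and its high animals, which narrows its range, and not over all animals together. Computed in this way, the relations were weak. Of 27 relations, 4 passed by permutation. Sdr9c7 and B4galnt1 were negatively related (r = -0.27, rho = -0.28, permutation p = 1e-05 and 2e-05, adjusted 2.7e-04 and 5.4e-04, n = 265), also without the 2 animals farthest from the median (r = -0.30). Sdr9c7 and Cxcl14 were positively related (r = 0.22, rho = 0.20, permutation p = 2.1e-04 and 7.8e-04, adjusted 0.00283 and 0.0105, n = 274; r = 0.24 without the farthest 2). So were Moxd1 and Sdr9c7 among the animals low for Moxd1 (r = 0.23, rho = 0.22, permutation p = 0.00133 and 0.00224, adjusted 0.012 and 0.0202, n = 195; r = 0.22 without the farthest 2), and Rarres1 and B4galnt1 had r = -0.16 (rho = -0.18, permutation p = 0.00696 and 0.00416, adjusted 0.047 and 0.0281, n = 268; r = -0.15 without the farthest 2). On residuals from sex, diet and block none passed and the largest absolute r was 0.149.

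The gene most like B4galnt1 across DO animals was its direct neighbour on chromosome 10, Slc26a10, an anion transporter of the SLC26 family (Spearman rho = 0.93 over 277 animals, a description). In the 9 animals low for B4galnt1, Slc26a10 was at 47.8, 249 and 465.6, and in the other 268 at 350, 986 and 2817, so the ranges overlapped only between 350 and 465.6. No source used here states the strand of the libraries, so reads of the adjoining genes cannot be told apart where they overlap. The nearest tested gene on the other side, Os9, a lectin of the endoplasmic reticulum with 4 other genes between, had rho = 0.33 and was at 12446 to 21312 in the low animals, within the range of the others (9637 to 30849). In the founder males Slc26a10 had r = 0.60 with B4galnt1, and the Slc26a10 median was lowest in NOD, at 5.88. It was also low in 129S1 (9.43) and NZO (12.6), with ranges that overlapped that of NOD. B4galnt1 was not low in these 2 strains, with medians of 601 and 578.

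Rdh7, a retinol dehydrogenase gene next to Sdr9c7, was at 87400, 100625 and 121295 in the 3 animals low for Sdr9c7, and at 43267, 72852 and 117196 (lowest, median and highest) in the others. All 3 lay above the median of the others and 1 above their highest value, which is given without a test. Hsd17b6, a steroid dehydrogenase gene on the other side, was at 5141 to 12700 in the low animals, within the range of the others (1090 to 27951). Nxpe4 and Rexo2, on either side of Nxpe2, were at 30.7 to 55.3 and 1445 to 1779 in its 4 low animals, within the ranges of the others (0 to 135.03 and 1084 to 4016). The nearest tested genes of Moxd1 were Stx7 and Ccn2, those of Tsnax Egln1 and Sipa1l2, those of Rarres1 Gfm1 and Mfsd1, those of Cxcl14 Tifab and Slc25a48, and those of Tff3 Abcg1 and Gm15318.

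The genes most like Moxd1 over DO animals were Mup19, Mup8 and Mup7, major urinary proteins of near-identical sequence that the counting may mix (Spearman rho = 0.66, 0.65 and 0.65). For Sdr9c7 they were Ugt2b1, a glucuronosyltransferase, Hsd3b5, a steroid dehydrogenase, and Slc22a28, an organic anion transporter (0.69, 0.69 and 0.68). These values were taken over both sexes and diets together, and Moxd1 and Sdr9c7 differed between the sexes. For Tsnax the most like were Chmp1a, Ctu2 and Cog2 (0.55, 0.45 and 0.40), for Rarres1 Gfm1, Chrna2 and Chpt1 (0.43, 0.42 and 0.41), for Nxpe2 Nxpe4, Eci2 and Fabp2 (0.33, 0.33 and 0.31) and for Cxcl14 Nhsl1, Kifc3 and Map7d1 (0.36, 0.36 and 0.35). After Slc26a10, B4galnt1 was most like Lcat and Naprt (0.41 and 0.41). Of these 21 genes, 12 were also named from the NCBIM37 table and 6 from residuals.

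Over the 128 founder males, where strain means set the correlation, the most like genes often shared the low strain. For Sdr9c7 they were Cyp4f14 (r = 0.92), Mup3 and BC017158, and the PWK medians of Cyp4f14 and Mup3 were 43.0 and 1135, the lowest of the 8 strains. For B4galnt1 they were Cyp2a12 (r = 0.95), Rmnd1 and Desi1, with a Cyp2a12 median of 278 in NOD and at least 3034 elsewhere. For Nxpe2 they included Hint3 (r = 0.87) and Anxa4, with a Hint3 median of 25.3 in WSB and at least 87.6 elsewhere. For Moxd1 they were Rps18-ps3, Fetub and Cyp2d11 (r = 0.83 for the first, a pseudogene), for Tff3 Dlgap1 (r = 0.73), Hmgn2-ps1 and C1s2, and for Cxcl14 Maged1 (r = 0.74), Tuft1 and Xirp1.

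Relatives by family or pathway were counted from the same fits. Values are log2 differences, and those named passed an adjusted p of 0.05 (limma) unless stated. Of 67 relatives, 51 were tested for DO sex, and 5 were higher and 38 lower in males, or 0 and 50 under total-count scaling, where the median of all genes was -0.86. DO diet changed 35 of 51, 23 upward and 12 downward, and founder diet changed 9 of 42, 4 upward and 5 downward. The shares of all genes were 62.9% for DO sex, 58.9% for DO diet and 23.2% for founder diet, so that the diet counts of the relatives were near the background. Among 12 retinol and steroid dehydrogenases, on the scale of the deposited values, Sdr9c7 was the only one higher in males (under total-count scaling too) and 10 were lower, among them Rdh16f2 (-2.16) and Rdh16 (-0.87). The median of that list was -0.21, against -0.00 over all genes, and under total-count scaling -1.07 against -0.86. Bdh1, the mitochondrial ketone body enzyme, rose with high fat in DO animals by 0.47, and Rdh11 fell with high fat in founders by 1.08.

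Of 18 tested genes of ganglioside synthesis and breakdown, 2 were higher and 12, B4galnt1 included, lower in males (list median -0.23), and under total-count scaling all 18 were lower (-1.09). Among the lower genes were St6galnac4 (-0.72) and Ugcg, which makes glucosylceramide (-0.36). The 14 calls of 18 compare with 62.9% of all genes, and the 14 for diet with 58.9%. St3gal5, the GM3 synthase that makes the precursor of B4galnt1's product, rose by 0.72 with high fat, where 10 of the list rose and 4 fell. Of 14 CXC chemokines and receptors, 2 were higher in males, Cxcl14 being 1 of them, and 10 lower, among them Cxcl9 (-1.20), Cxcr3 (-1.06), Cxcr6 (-0.96) and Cxcl11 (-0.58), with a list median of -0.59; under total-count scaling 12 were lower and 0 higher (-1.43). Beside them, the markers of T and B cells and Kupffer cells were lower in males, as given above.

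The smaller families gave single genes. Pam, the other tested copper monooxygenase, was lower in males (-0.31), unlike Moxd1. Tff1 was lower in males (-0.43). Of the translin group Dicer1 (0.17) and Tsn (0.04) were higher and Ago2 (-0.16) lower in males, but under total-count scaling all 3 were negative (-0.69, -0.82 and -1.02). Of the latexin and chemerin relatives Lxn was lower in males (-0.32) and Rarres2, the chemokine precursor chemerin, rose with high fat (0.19), while Agbl2 was at -0.23 for sex and did not pass. Nxpe3 was lower in males (-0.38), and Nxpe4 rose with high fat by 0.64, near the 0.66 of Nxpe2.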

How the data were processed

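Liver poly-A RNA of 277 DO animals and 128 founder males was sequenced as TruSeq mRNA libraries, per the labels' protocols. The authors deposited 1 signal value per gene and sample: a table aligned to individualized genomes and a table aligned to NCBIM37 for DO animals, and 1 founder table, each normalized by steps not given in the sources used here. Per the submitters' processing notes, Bowtie 0.12.8, CASAVA 1.8.0 and RSEM 1.2.1 were used, with builds NCBIM37 and mm9. In the DO tables a median of 99.95% (individualized) and 99.96% (NCBIM37) of the low values per animal were whole multiples of a step, within 0.1 of a step. Low values were those above 0 and up to 20.5 steps, and higher values are not part of this share. In the founder table this share was 82.7%. Deposited signal was multiplied by 1 constant per table to give count equivalents.

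Differences were tested with limma 3.58.1 (R 4.3.3) on log2(count equivalents + 1), so fold changes of low genes are understated. Genes needed 10 count equivalents in as many samples as the smallest group, which left 13536 founder and 16738 DO genes, and p-values were adjusted over all of them by the Benjamini-Hochberg method with a threshold of 0.05. Founder fits had a term for each strain and diet, and DO fits had sex, diet and block. The 277 DO animals were grouped by genotyped sex, which differed from the letter in the name for 2, and 9 labelled DO animals were not analysed here. On whole counts of DO animals recovered from the steps, edgeR 4.0.16 called 10421 genes for sex, 9887 for diet and 1633 for sex by diet, and DESeq2 1.42.0 called 10505, 10024 and 1798. Low shares were compared with Fisher's exact test (12 tests, two-sided), and relations with 100000 permutations, whose smallest p is 1e-05, two-sided. The members, lists and tests were chosen with earlier results of these data known. The genes most like a member were the 3 with the highest correlation among tested genes, and relatives were named by their smallest p, up to 4 per list. Some genes chosen by these rules are not reported here. The scripts were tested on simulated data. Labels mark separate animals, so the spread is between animals.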

Additional observations from a re-analysis of the deposited data

Results flagged for a closer look

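Each gene was examined in each founder group of 8 males, 128 combinations less the 2 in which all values were 0, and 14 held a highest or lowest value far from the other 7 (gap over range above 0.526), where chance marks about 1 in 20 groups. In 3 of them the value is a library closest to another strain: B4galnt1 was at 8.01 in the library labelled B6 chow and at 617 in the library labelled NOD high fat, and Cxcl14 was at 11.9 in the latter.

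The other values came from libraries closest to their labelled strain. Moxd1 was at 317 in 1 NZO male on high fat (the next was 12.9) and at 129 in 1 PWK male on chow (the next was 997). Tsnax was at 6.02 in 1 CAST male on high fat. Sdr9c7 had low values of 185 in 129S1 on high fat, 165.1 in NZO on chow and 204 in WSB on chow. Nxpe2 had low values of 22.9 in 129S1 on chow, 12.5 in B6 on chow, 81.5 in B6 on high fat and 102.7 in NOD on high fat. B4galnt1 was at 1050 in the same WSB male on chow that had the low Sdr9c7.

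The diet difference varied between founder strains for Moxd1 (limma F-test, adjusted p = 1.63e-05), Tff3 (0.00808) and Cxcl14 (0.0251). Moxd1 was lower on high fat in NZO and its differences in the other 7 strains, -0.21 to 0.88, did not pass.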

How the results depend on the processing

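Of 527 recomputed values of single genes, 470 kept their direction and call, 25 lost the call, 22 gained it and 10 reversed, and of 92 recomputed counts 70 stayed within 1.5 times. Members called for founder diet were 5 without the 2 libraries. Without NZO the count for diet by strain was 1 and that of calls within strains 3. DO sex counted 3 in block 1. DO diet counted 3 in block 1 and 2 in block 2, and sex by diet 1 in block 1. Within females the diet count was 2 under total-count scaling, 2 with NCBIM37, 0 in block 1 and 3 each with edgeR and DESeq2, and within males it was 1 in block 2. The alignment difference counted 7 without centring and 7 with no minimum fold. In block 1 it counted 0 of 6 tested genes, where Moxd1 did not pass the filter on low values and was not tested. Split genes were 0 on residuals and 3 by the gap rule added later. Calls of low share were 2 at the border of the largest gap with 5% of animals. Relations called on residuals were 0, and most-like genes named again were 12 with NCBIM37 and 6 on residuals. Total-count scaling gave 202 genes higher and 16358 lower in males, against 5130 and 5390, and reversed Tsnax (-0.85), Rarres1 (-0.38), Nxpe2 (-0.71) and Cxcl14 (-0.20). Without centring, where the median of all genes was 0.90, the alignment difference reversed for Moxd1 (0.51), Rarres1 (0.76), Sdr9c7 (0.80), Nxpe2 (0.87), B4galnt1 (0.90) and Cxcl14 (0.84). Except where the number of samples or the scaling sets them apart by construction, the cause was not tested. Levels under 3 count equivalents are not told apart from 0. No paired analysis was possible because the labels give each animal its own number and none is shared between groups.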
